A study of Mus musculus with 313 samples.

Results

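The α4β7+ lymphoid precursor (aLP) is a cell of the mouse fetal liver that lacks lineage markers, carries IL7Rα and integrin α4β7, and lacks the proteins PLZF and CXCR5. Single cells were each measured with 100 RT-PCR assays, mostly of transcription factors and receptors, and the question here is how far aLP cells differ among themselves. All cells with aLP in their name were taken, 55 with the number 2 after it (called sort 2) and 92 with the number 3 (called sort 3), of 313 cells measured. A gene was counted as detected in a cell when its Ct, the amplification cycle where its signal passes the instrument's threshold, lay below 24. A lower Ct means more cDNA. Cells with fewer than 5 detected assays were dropped, which removed 1 cell of sort 2 with 2 detected assays and left 54 and 92 aLP cells.

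All groups came from fetal livers of embryonic day 15, pooled for 2 sorting experiments, with the activating agent given as NA (strain: not given in the sources used here). Beside the aLP cells stand common ILC precursors (ILCP), sorted with IL7Rα, α4β7 and PLZF, with 62 cells in sort 2 and 90 in sort 3. Another group, precursors of lymphoid tissue inducer cells, had 14 cells in sort 3 and is used only in the count of all cells. Because the livers were pooled, no cell can be assigned to a fetus, and the replicate is a pool (the cells that 1 group has in 1 sort).

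Precursors of this gate stand between the common lymphoid progenitor, which can give rise to B, T, natural killer and innate lymphoid cells, and the committed precursors of innate lymphoid cells (ILCs). ILCs are lymphocytes without rearranged antigen receptors, and their commitment is marked by the factors Id2, Nfil3, Tox, Tcf7 (TCF-1), Gata3 and Zbtb16 (PLZF). Alternative fates are marked by other genes, such as Ebf1 and Pax5 for B cells and Irf8 for dendritic cells, monocytes and B cells. A heterogeneous precursor can show several of these genes in different cells, or together in single cells.

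The genes of the gate were checked first. Itga4, the α4 integrin chain, was found in 52 of 54 aLP cells in sort 2 (96.3%) and in all 92 in sort 3, and Itgb7, its β7 partner, was not analysed here. Il7r, the receptor chain on which the cells were also sorted, was detected in 30 of 54 cells (55.6%, exact 95% interval 41.4 to 69.1) and in 28 of 92 (30.4%, 21.3 to 40.9). Zbtb16, which encodes PLZF, was detected in 11 of 54 cells (20.4%) and 3 of 92 (3.3%), although the gate required PLZF-negative cells. Cxcr5 was detected in 14 of 54 (25.9%) and 7 of 92 (7.61%). The transcripts of the negative gate were therefore present in a minority of aLP cells, and in a larger share in sort 2. Intervals here and below are Clopper-Pearson intervals over cells and cover counting error only.

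Genes of other cell types were detected in shares that differed widely by type. The B lineage factors Ebf1 and Pax5 were each detected in 0 of 54 cells in sort 2 (up to 5.56% possible from a count of 0) and in 1 of 92 cells in sort 3 (1.09%). The B lineage list also holds Irf8, Bcl11a, Foxo1 and Tcf3. At least 1 of its 6 genes was detected in 53 of 54 (98.15%) and 89 of 92 (96.74%) cells. Cd4 was detected in 4 of 54 and 5 of 92 cells, and Itga2b, the αIIb integrin of megakaryocytes, in 1 cell of each sort. Of the myeloid and dendritic list, Irf8 or Pira11 was detected in 41 of 54 (75.9%) and 80 of 92 (87%) cells. Irf8, which is on both lists, was itself detected in 40 and 73 cells. At least 1 of Cxcr5, Lta, Tnfsf11 and Il23r, genes of lymphoid tissue inducer cells, was detected in 16 of 54 (29.6%) and 15 of 92 (16.3%) cells, and at least 2 in 5 and 2 cells. Of Zbtb16, Tcf7 and Rora, which mark ILC precursors, at least 1 was detected in 22 of 54 cells (40.7%) and 16 of 92 (17.4%). All 3 were detected together in 3 cells of sort 2 and 1 cell of sort 3, against 40 of 62 and 70 of 90 ILCP cells.

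Single aLP cells differed widely in how many assays they showed. In sort 2 this number ran from 8 through a median of 36.5 to 45, with a mean of 32.2 and an SD of 9.53 over cells. In sort 3 it ran from 18 through a median of 28 to 47, with a mean of 28.2 and an SD of 5.68. Below 20 assays lay 8 cells of sort 2 and 6 of sort 3. The mean of the 2 aLP pools was 30.2 ± 2.81 assays (SD, n = 2 pools), against 40.8 ± 0.042 for ILCP (SD, n = 2 pools). A permutation test over 2 pools against 2 cannot reach 0.05, so none was made.

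Cells with few assays also had high Ct values of Actb and Gapdh, the cytoskeletal and glycolytic genes used as housekeeping assays. The mean Ct of both ran from 11.3 through a median of 12.8 to 20.3 in sort 2 and from 12.2 through 13.6 to 16.9 in sort 3. Across cells, Pearson's r between this Ct and the number of detected assays was -0.819 in sort 2 (Spearman's rho -0.498, 54 cells) and -0.366 in sort 3 (rho -0.436, 92 cells). The cells of a sort share a pool, so these values are descriptions without a p. The long tail toward high Ct values was in sort 2, where some cells had a housekeeping Ct that no cell of sort 3 reached. Cells with less cDNA and cells that use fewer of these genes cannot be told apart here.

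**Figure D1:**
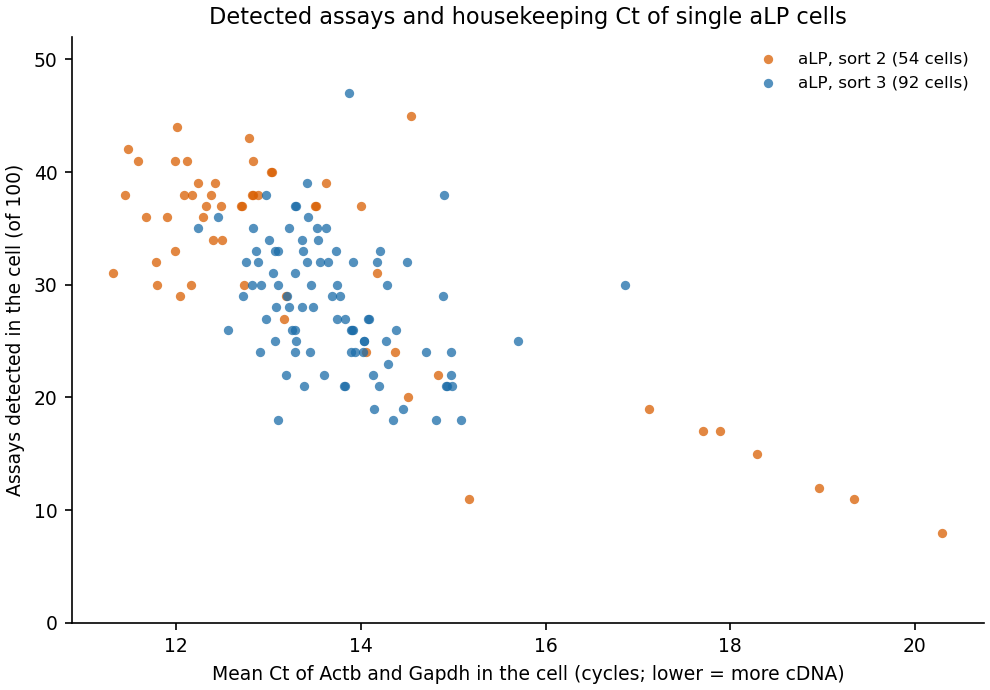
Each point is 1 aLP cell. The x axis gives its mean Ct of Actb and Gapdh in cycles and the y axis its number of detected assays. Cells of sort 2 reach a Ct of 20.3 and a count as low as 8, while those of sort 3 stay at or below 16.9 and at or above 18.

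Of the 100 assays, 7 were detected in at least 90% of aLP cells of both sorts. They were Actb, Gapdh and the purine salvage gene Hprt, the Notch receptor gene Notch2, Itga4, the Groucho co-repressor gene Tle3 and Cbfb, the partner of the Runx factors. Notch2 was detected in 54 of 54 and 92 of 92 cells, at a Ct of 13.8 to 22.3 (median 15.9) in sort 2 and 14.3 to 18.2 (median 16) in sort 3. Tle3 was detected in 54 of 54 and 85 of 92 cells. Cbfb was detected in 50 and 83 cells (92.6% and 90.2%). Every aLP cell of both sorts therefore carried the transcript of a Notch receptor.

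Another 8 assays were detected in no aLP cell. They were Bcl11b, a T cell factor, the Notch target gene Dtx1, Eomes and Ncr1 of natural killer cells, the interleukin-25 receptor gene Il17rb, Il1r1, Fgf15 and Zbtb7c. A count of 0 allows up to 5.56% in sort 2 and 3.3% in sort 3. Il1r1 gave a Ct in 20 aLP cells, all at or above 24. Dtx1, Il1r1 and Zbtb7c were also detected in no ILCP cell, so a failed assay and a silent gene cannot be told apart for them. Gata3, a factor of T cells and ILCs, was detected in 6 of 54 cells of sort 2 (11.1%) and in 0 of 92 cells of sort 3 (up to 3.3%). A further 18 assays were seen in some cells but in fewer than 5% in both sorts.

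Between these ends lay 25 assays detected in 20 to 80% of aLP cells of both sorts. Among transcription factors, Irf8 was detected in 74.1% and 79.3% of cells in sorts 2 and 3, the E protein gene Tcf3 in 63% and 57.6%, Foxo1 in 42.6% and 55.4%, Runx1 in 46.3% and 21.7%, and Ets1 in 29.6% and 30.4%. Nfatc1 was detected in 51.9% and 51.1%, the aryl hydrocarbon receptor gene Ahr in 31.5% and 45.7%, the proto-oncogene Myc in 77.8% and 65.2%, Trp53 in 64.8% and 65.2%, and Irf1 in 27.8% and 31.5%. The receptor genes of this band were Notch1 (63% and 44.6%), Il2rb (22.2% and 21.7%), Il12rb2 (37% and 26.1%), the tumour necrosis factor receptor gene Tnfrsf1a (29.6% and 35.9%), Cd27 and Il7r. The others were the co-repressor genes Tle1 and Tle4, Sox4, the survival gene Bcl2, the methylcytosine dioxygenase gene Tet2, the Notch inhibitor gene Numb, the imprinted RNA H19 and the IGF-binding protein gene Igfbp4. Over all 100 assays, the shares of the sorts had a Pearson r of 0.922 and a Spearman rho of 0.906, a description across assays, which are not independent.

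How alike single cells were was measured in aLP and in ILCP. The mean overlap of detected assays between 2 cells (the Jaccard index) was 0.485 in sort 2 and 0.488 in sort 3 for aLP, and 0.471 and 0.516 for ILCP. The aLP pools had 37 and 31 assays in 20 to 80% of cells, and the ILCP pools 50 and 45. Below 5% of cells lay 29 and 36 assays in aLP and 14 and 16 in ILCP. The overlap and these counts can depend on the number of detected assays per cell, 30.2 in aLP and 40.8 in ILCP as means of pools. None of them was tested.

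**Figure D2:**
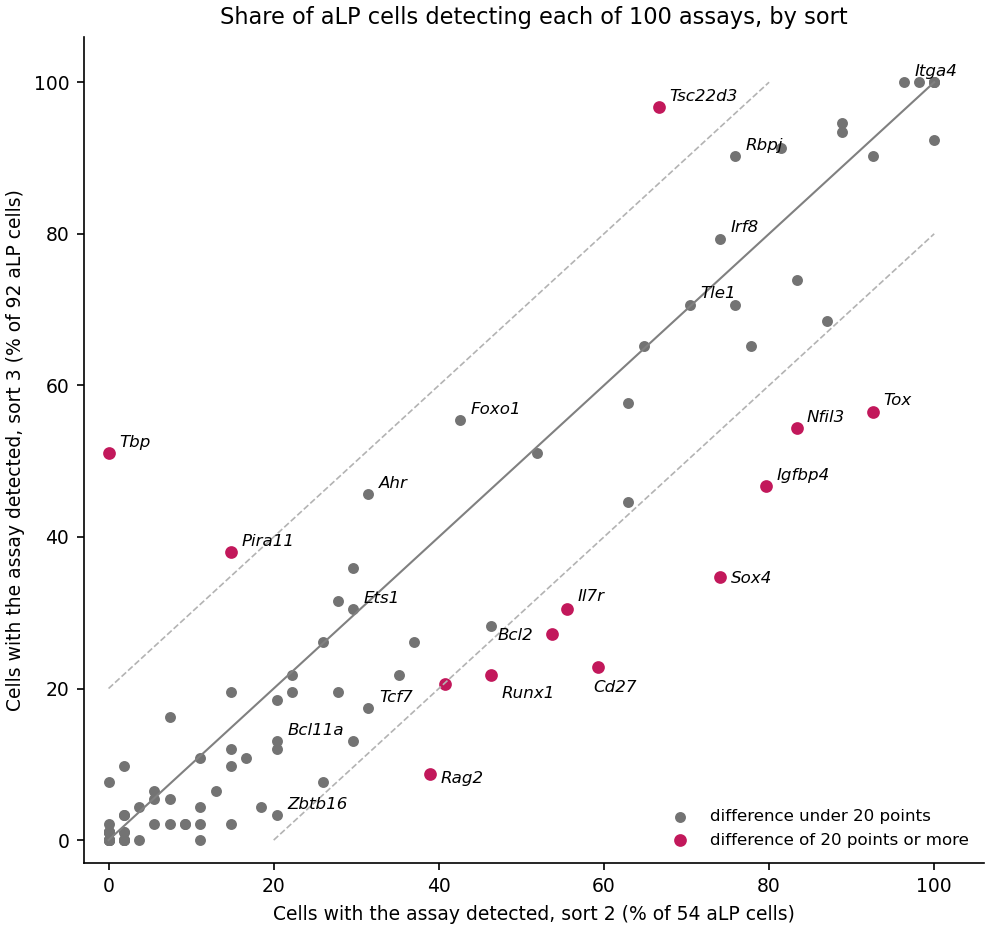
Each point is 1 of 100 assays. The axes give the percentage of aLP cells that detect it in sort 2 (54 cells) and sort 3 (92 cells), the solid line marks equal shares, and the dashed lines mark 20 points of difference. Sox4, Cd27 and Tox lie far below the line, and Tbp and Tsc22d3 far above it.

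The 6 marker genes of aLP were chosen with earlier results of these cells known, so their excess over ILCP is no independent evidence. Irf8 was detected in 40 of 54 aLP cells of sort 2 (74.1%, 60.4 to 85.0) and 73 of 92 of sort 3 (79.3%, 69.6 to 87.1), against 40.3% and 33.3% of ILCP cells. Tle1 was detected in 38 of 54 (70.4%) and 65 of 92 (70.7%), against 35.5% and 25.6%. Both were about equally frequent in the aLP cells of either sort. Tsc22d3, the glucocorticoid-induced leucine zipper gene, was detected in 36 of 54 (66.7%) and 89 of 92 (96.7%), against 35.5% and 64.4% of ILCP cells, so that its share was higher in sort 3 in both groups. Nfil3, a factor needed early in ILC development, was detected in 45 of 54 (83.3%) and 50 of 92 (54.3%), against 54.8% and 44.4%. Rag2, a subunit of the V(D)J recombinase, was detected in 21 of 54 (38.9%) and 8 of 92 (8.7%), and Bcl11a, a factor of early B and dendritic cell development, in 11 of 54 (20.4%) and 12 of 92 (13%). Among ILCP cells Rag2 was detected in 14.5% and 12.2%, and Bcl11a in 4.84% and 2.22%. The aLP share of Rag2 in sort 3 was not above that of ILCP, which lies within its interval (3.83 to 16.4).

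The markers were combined differently from cell to cell. A cell of sort 2 carried a median of 4 of the 6 markers and a cell of sort 3 a median of 3. All 6 were detected in 3 of 54 cells of sort 2 and in 0 of 92 of sort 3, which allows up to 3.3%. No marker was detected in 2 cells of sort 2 and 0 cells of sort 3. At least 3 markers were detected in 44 of 54 (81.5%) and 78 of 92 (84.8%) aLP cells, against 16 of 62 and 27 of 90 ILCP cells. At least 3 markers together with at least 1 of Zbtb16, Tcf7 and Rora were detected in 16 aLP cells of sort 2 (29.6%) and 12 of sort 3 (13%). The same combination was detected in 14 of 62 (22.6%) and 26 of 90 (28.9%) ILCP cells.

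Among cells that detected a gene, the amount also varied. Irf8 had the largest SD, averaged over both sorts, of the 48 assays with at least 10 detecting cells in each, at 2.36 cycles in sort 2 and 2.44 in sort 3. Its Ct ran from 14.1 through a median of 17.9 to 22.3 in sort 2 and from 13.9 through 17.5 to 23.3 in sort 3. The quartiles lay at 15.6 and 19.8 in sort 2 and at 15.1 and 19.6 in sort 3. Tox, an HMG-box factor of ILC precursors, ran from 13.3 through 15.5 to 23.8 (SD 2.71) in 50 cells of sort 2 and from 13.6 through 17.9 to 21.4 (SD 2.0) in 52 cells of sort 3.

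Tcf7 was detected in 31.5% and 17.4% of aLP cells. Its Ct ran from 15.3 through 18.04 to 20.7 in 17 cells of sort 2 and from 15.3 through 17.9 to 21.2 in 16 cells of sort 3. Nfil3 ran from 15.3 through 17.4 to 23.5 in sort 2 and from 16.2 through 18.6 to 23.4 in sort 3. Lmo4, a LIM-domain cofactor gene detected in 88.9% and 94.6% of cells, was also among the 6 widest, with SDs of 2.04 and 1.64 cycles.

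At the narrow end stood Batf, an AP-1 factor gene, with SDs of 0.79 and 0.69 cycles, then Il12rb2 (0.77 and 0.88), Nfatc1 (1.02 and 0.85), Runx1 (0.99 and 0.89) and H19 (0.88 and 1.01). Median Cts were 20.1 and 19.9 for Batf, 21.4 and 21.2 for Il12rb2, 20.03 and 20.7 for Nfatc1 and 21.1 and 20.99 for Runx1. H19 had medians of 18.1 and 19.4. The SD was larger in sort 2 for 39 of these 48 assays. Actb itself had an SD of 2.61 cycles in sort 2 and 0.73 in sort 3, and the part of the cell's cDNA amount in the other spreads was not tested within single assays.

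**Figure D3:**
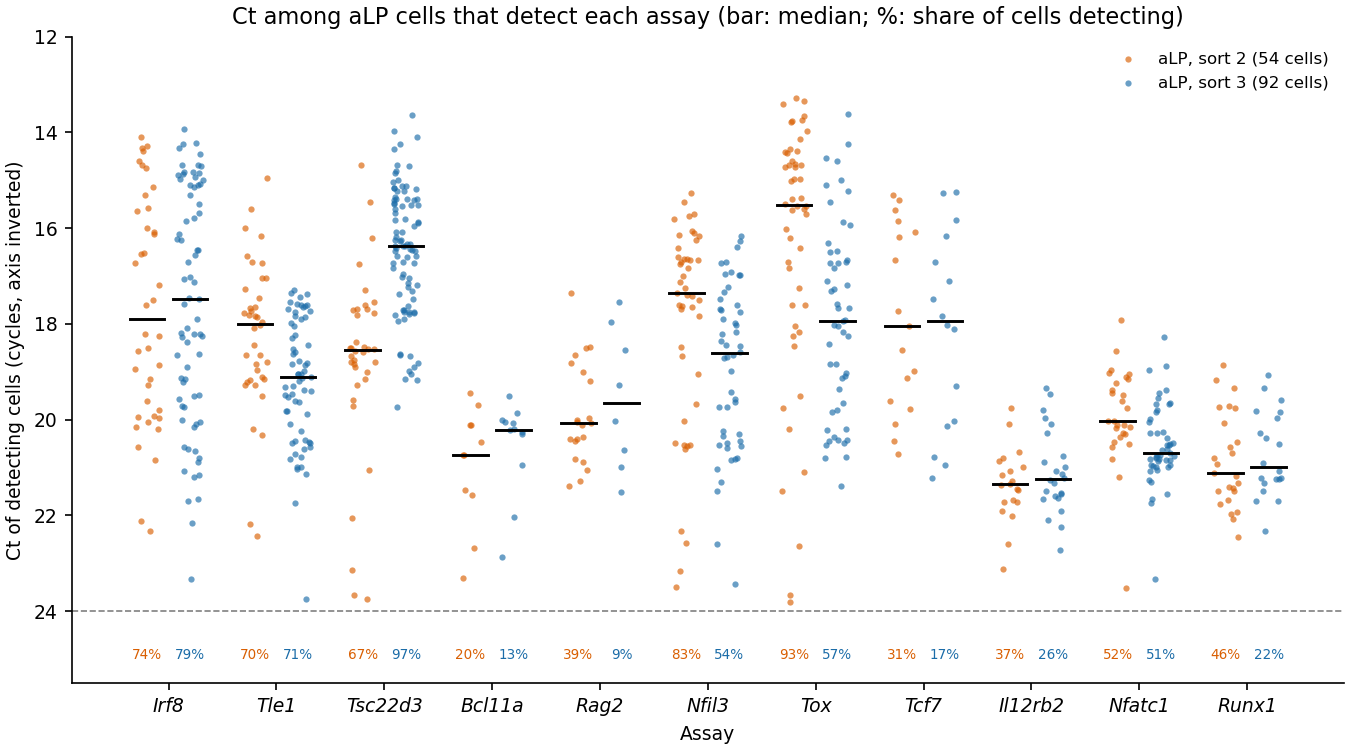
Each point is the Ct, in cycles on an inverted axis, of 1 aLP cell that detects the assay, with sort 2 in orange and sort 3 in blue. Bars are medians, the dashed line is the limit of 24, and percentages are shares of detecting cells. Irf8 spreads over 14.1 to 22.3 in sort 2, while Il12rb2 lies between 19.8 and 23.1.

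The spread among detecting cells was compared between aLP and ILCP with limma, on the log2 of the SD of Ct in the 4 pools, for the 51 assays with at least 8 detecting cells in each pool. None was called wider in aLP (0.00% of 51) and none narrower (0.00%) at an adjusted p below 0.05, and 2 had an unadjusted p below 0.05. These were H19 and Tsc22d3. The SD of H19 was 0.88 and 1.01 cycles in aLP of sorts 2 and 3, and 1.73 and 1.98 in ILCP (log2 difference -0.98 ± 0.31 SE, adjusted p = 0.514 in limma). The SD of Tsc22d3 was 1.96 and 1.35 in aLP and 0.73 and 1.04 in ILCP (0.91 ± 0.35 SE, adjusted p = 0.633). The median log2 difference over the 51 assays was 0.07, with 30 above 0 and 21 below. Scaled to Actb and Gapdh, it was -0.04, with 20 above and 31 below, and among cells with at least 20 detected assays it was also -0.04, with 19 above and 32 below. Without the aLP pool of sort 3, 1 assay, Actb, was called wider in aLP.

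The sorts differed in which genes their aLP cells showed. With 1 aLP pool in each sort there is no replicate of a sort, so the shares are set side by side without a test. In sort 3, 10 assays (10% of 100) were detected in a share at least 20 points lower and 3 (3%) in a share at least 20 points higher. Sox4, an HMG-box factor of early lymphoid cells, was detected in 40 of 54 cells of sort 2 (74.1%, 60.4 to 85.0) and 32 of 92 of sort 3 (34.8%, 25.2 to 45.4), a difference of -39.3 points. Cd27, a tumour necrosis factor receptor of lymphoid progenitors, was detected in 32 of 54 (59.3%, 45.0 to 72.4) and 21 of 92 (22.8%, 14.7 to 32.8), a difference of -36.4 points. Tox was detected in 50 of 54 (92.6%) and 52 of 92 (56.5%), and Igfbp4 in 43 of 54 (79.6%) and 43 of 92 (46.7%). Rag2, Nfil3, Bcl2 and Il7r differed by -30.2, -29, -26.5 and -25.1 points. Runx1 differed by -24.6 points.

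Genes lower in sort 3 thus included Sox4, Cd27, Rag2, Tox, Nfil3, Il7r, Bcl2, Igfbp4 and Runx1. Rag2 and Cd27 are the only genes of the early lymphoid progenitor list on the panel, so that list was lower as a whole. Other lists were not. Ets1, an ILC precursor factor like Tox and Nfil3, was detected in 29.6% and 30.4% of cells. Tsc22d3, on the growth, survival and glucocorticoid response list with Bcl2, was higher in sort 3 by 30.1 points. The share of cells with at least 1 of Rag2 and Cd27 was 64.8% in sort 2 and 26.1% in sort 3. The share of cells with at least 1 ILC precursor marker among Zbtb16, Tcf7 and Rora moved the same way, 40.7% against 17.4%. The number of detected assays was also higher in sort 2, with means of 32.2 against 28.2 and medians of 36.5 against 28. The part of both in these differences was not tested. A setting chosen after seeing the data took the cells with 25 to 38 detected assays in both sorts (29 and 64 cells). In it Sox4 differed by -40.9 points, Cd27 by -32.4 and Tox by -25.9. The setting does not match the sorts in depth, since its cells of sort 2 still tended to have more detected assays.

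In the other direction, Tsc22d3 was detected in 66.7% (52.5 to 78.9) of cells in sort 2 and 96.7% (90.8 to 99.3) in sort 3, a difference of 30.1 points. Its median Ct among detecting cells was 18.5 in sort 2 and 16.4 in sort 3, so both the share and the amount were higher in sort 3. Pira11, a paired immunoglobulin-like receptor gene by its assay name, was detected in 8 of 54 (14.8%) and 35 of 92 (38%), against 0 of 62 and 3.33% of ILCP cells. The next differences, Rbpj (14.3 points), Ahr (14.2), Foxo1 (12.8), Zbtb7a (9.82) and Zbtb7b (8.9), were under 20 points. Those of Rbpj, the DNA-binding partner of Notch, and Zbtb7a were -0.916 and -2.48 points among cells with 25 to 38 detected assays.

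Tbp, the gene of the TATA-binding protein and a housekeeping assay, differed most, and it differed by cell number, taken in ranges of 96 (the first, the second and the third). It was detected in 0 of 54 aLP cells of sort 2, all of them in the second range, and in 0 of 10 ILCP cells in that range of sort 2. In the ILCP cells of the first range of sort 2 it was detected in 30 of 52 (57.7%). In aLP cells of sort 3 it was detected in 13 of 24, 16 of 35 and 18 of 33 cells of the first, the second and the third range. Other assays silent in the second range of sort 2, such as Aes, Ncr1 and Tle2, were detected elsewhere in few cells or none. In the ILCP cells of the first range of sort 2, these were detected in 2, 3 and 4 of 52. No aLP cell of sort 2 lay outside the range, so sort and range cannot be told apart for the aLP differences between sorts.

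Within sort 3 the ranges could be compared. The spread of the share between its 3 ranges had a median of 7.26 points over assays and was at least 20 points for 9 assays. The absolute difference between the 2 sorts had a median of 5.13 points. The spread takes the highest and lowest of 3 shares over fewer cells, so the 2 medians are not like measures. Foxo1 was detected in 33.3%, 57.1% and 69.7% of cells of the first, the second and the third range, Ets1 in 29.2%, 14.3% and 48.5%, and Myc in 45.8%, 74.3% and 69.7%. Irf8 stood at 79.2%, 77.1% and 81.8%, Sox4 at 41.7%, 28.6% and 36.4%, and Cd27 at 16.7%, 20% and 30.3%. The shares of Sox4 and Cd27 in each range of sort 3 lay below those of sort 2.

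Which genes were detected in the same cells was described with phi, the correlation of 2 present or absent calls, in each sort apart. Among the 40 assays detected in 10 to 90% of cells of both sorts there are 780 pairs. Phi reached 0.3 in both sorts for 11 pairs (1.41%), was at or below -0.3 in both for none, and at or below -0.2 in both for 4. The median phi was 0.129 in sort 2 and 0.031 in sort 3. After the number of detected assays in the cell was taken out (partial phi), the medians were 0.023 and 0.003. All phi values are descriptions over 54 and 92 cells that share pools, with no p.

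Ranked by the lower of its phi values in the 2 sorts, the first pair was Cd27 and Sox4. In sort 2, 30 cells had both, of 32 with Cd27 and 40 with Sox4 (phi 0.542). In sort 3, 17 cells had both, of 21 with Cd27 and 32 with Sox4 (phi 0.527). The partial phi was 0.482 and 0.399, and phi within the 3 number ranges of sort 3 was 0.529, 0.474 and 0.598. In ILCP cells the pair's phi was 0.092 in sort 2 and 0.167 in sort 3. Cd27 was also found with Igfbp4 (phi 0.329 and 0.477), and Sox4 with Cdkn1c, the gene of the cell-cycle inhibitor p57 (0.384 and 0.395), and with Tle4 (0.359 and 0.320). The partial phi of Sox4 and Tle4 was 0.060 in sort 2. In ILCP cells, phi was 0.148 and 0.319 for Cd27 and Igfbp4, 0.263 and 0.235 for Sox4 and Cdkn1c, and 0.321 and 0.359 for Sox4 and Tle4.

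To show what lies in front of this pair, the 250 bases before the RefSeq start sites of both genes are given from the GRCm38.p6 build. Both genes are on the minus strand, and the sequences are written 5′ to 3′ toward the start site. Cd27 lies at chr6:125237028-125237277 and Sox4 at chr13:28953700-28953949.
Cd27: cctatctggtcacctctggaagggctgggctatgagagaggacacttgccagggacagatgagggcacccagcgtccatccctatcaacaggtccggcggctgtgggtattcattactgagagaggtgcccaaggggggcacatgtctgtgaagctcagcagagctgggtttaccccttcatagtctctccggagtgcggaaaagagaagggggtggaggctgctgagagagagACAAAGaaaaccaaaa
Sox4: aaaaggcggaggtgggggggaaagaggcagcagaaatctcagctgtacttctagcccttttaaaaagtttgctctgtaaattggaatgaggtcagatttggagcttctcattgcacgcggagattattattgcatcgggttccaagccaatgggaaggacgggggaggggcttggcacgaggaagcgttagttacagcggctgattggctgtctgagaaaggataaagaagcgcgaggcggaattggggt
The core words of 4 factor families on the panel were searched on both strands: CTTTGA (Tcf7), ACAAAG (Sox4), CAGGTG (Tcf3) and GGAAGT (Ets1). The capitals mark the 1 match, ACAAAG in the Cd27 window. Of 32851 windows of this length before mouse start sites, 13.8% hold CTTTGA, 16.5% ACAAAG, 17.2% CAGGTG and 19.7% GGAAGT. A match is a description of the letters and not a binding site, and the absence of a match says nothing about a factor.

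A second set of genes found together was made of Tcf7, Il2rb, the receptor chain shared by interleukins 2 and 15, and the interleukin-18 receptor gene Il18r1. Tcf7 and Il2rb were detected together in 9 cells of sort 2, of 17 and 12, and in 13 cells of sort 3, of 16 and 20 (phi 0.501 and 0.662). Phi was 0.342, 0.804 and 0.593 in the 3 number ranges of sort 3. Il18r1 was detected in only 9 and 10 cells. It was found with Tcf7 in 8 and 6 of them (phi 0.553 and 0.393, partial phi 0.495 and 0.257). With Il2rb it was found in 6 and 7 (phi 0.478 and 0.409, partial phi 0.41 and 0.273). H19 was found with Il2rb as well (0.352 and 0.361). In ILCP cells, where Tcf7 was detected in 88.7% and 96.7%, the phi of Tcf7 and Il2rb was 0.130 and 0.170, that of Il18r1 and Tcf7 0.240 and -0.00891, that of Il18r1 and Il2rb 0.347 and 0.060, and that of H19 and Il2rb -0.097 and 0.355. Of the 11 pairs, 3 kept a partial phi of at least 0.3 in both sorts, among them Cd27 with Sox4 and Tcf7 with Il2rb.

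Phi was nearer 0 for the lowest pairs, those found together less often than their separate shares would give. Irf8 and Tcf7 had a phi of -0.327 in sort 2 and -0.262 in sort 3. Irf8 and Ets1 had -0.356 and -0.246, Tle1 and Ets1 had -0.201 and -0.248, and Tle1 and Il18r1 had -0.254 and -0.235. The partial phi in sorts 2 and 3 was -0.294 and -0.269 for Irf8 and Tcf7, -0.336 and -0.246 for Irf8 and Ets1, -0.316 and -0.126 for Tle1 and Ets1, and -0.454 and -0.0795 for Tle1 and Il18r1. In ILCP cells the phi of these pairs was also below 0, at -0.122 and -0.131, -0.421 and -0.366, -0.325 and -0.378, and -0.518 and -0.174 in the same order. Irf8 and Tcf7 were still detected together in 9 aLP cells of each sort. Phi was 0.134 for Irf8 and Tcf7 and 0.028 for Irf8 and Ets1 among the cells of the second range of sort 3, against -0.588 and -0.799 in the first. Also among the 8 lowest pairs were Ets1 with Pira11 (-0.156 and -0.226) and the metalloprotease gene Adam10 with the interleukin-33 receptor gene Il1rl1 (-0.147 and -0.172). No cell of either sort had both Adam10 and Il1rl1, which were detected in 8 and 6 cells of sort 2 and in 18 and 10 of sort 3. With so few detecting cells, few with both would be found even without a link.

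**Figure D4:**
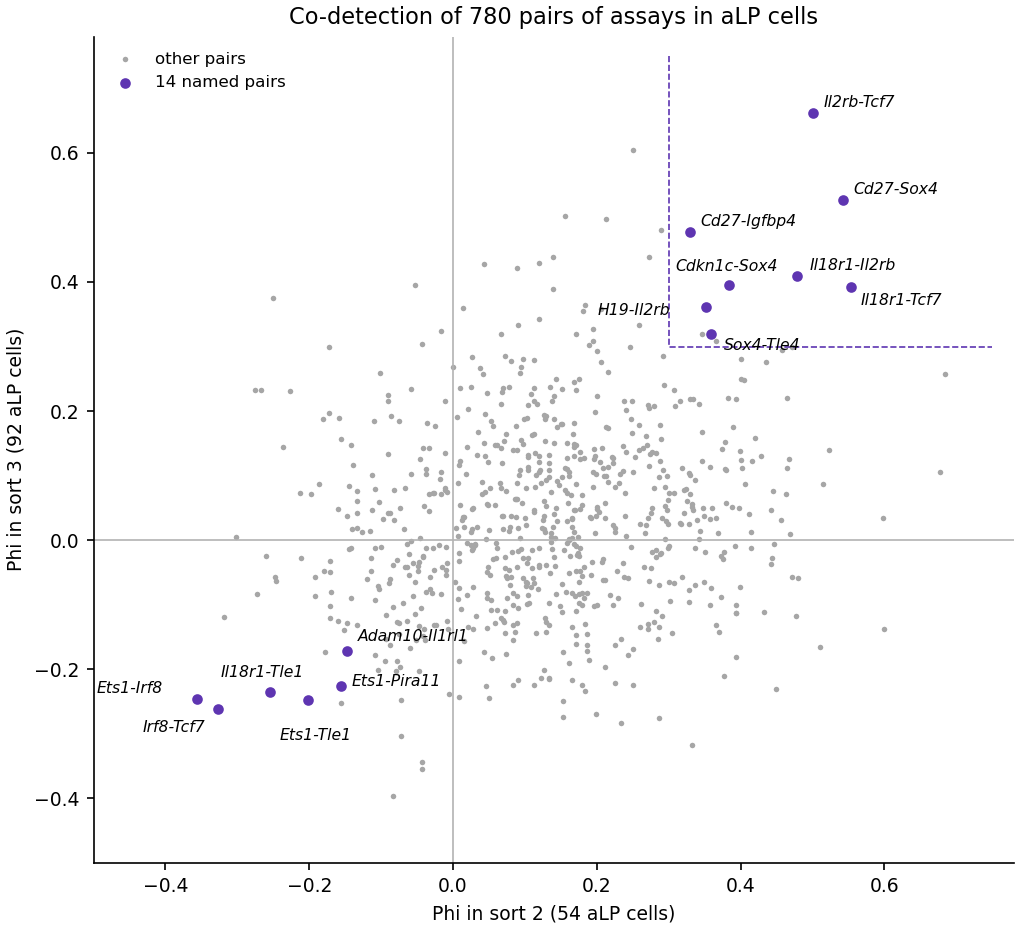
Each point is 1 of 780 pairs of assays. The axes give its phi over 54 aLP cells of sort 2 and 92 aLP cells of sort 3, purple points are 14 pairs of the 8 highest and the 8 lowest, and the dashed corner marks 0.3 in both sorts. Cd27 with Sox4 (0.542, 0.527) and Il2rb with Tcf7 (0.501, 0.662) lie farthest into that corner.

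A principal component analysis of present and absent calls put these patterns in order within each sort. In sort 2 the first component held 18.2% of the variance over 55 assays and had a correlation of 0.962 with the number of detected assays across 54 cells. It was led by Hif1a, Rbpj, Lmo4, the interferon-γ receptor gene Ifngr1, Myc and Zbtb7a. The second component (10.6%) had a correlation of -0.168 with that number. On it Il18r1, Cxcr5, Rora, the lymphotoxin gene Lta and Tcf7 had loadings opposite in sign to those of Igfbp4 and Irf8. In sort 3 the first component held 14.0% over 43 assays and had a correlation of 0.786 with the number of detected assays. It was led by Tcf7, Tox, Il2rb, Cd27, Sox4 and Nfil3, with Irf8 at a small loading of opposite sign (-0.061 against 0.292 for Tcf7). The second component of sort 3 (6.38%) had a correlation of -0.21 with the number of detected assays and was led by Notch1 and Ahr. On that component Irf8, Tcf7 and Il18r1 had loadings of the same sign (0.086, 0.056 and 0.116). The number of detected assays counts the same calls, so part of these correlations is built in. The mean Ct of Actb and Gapdh did not enter the components. With it the first component had a correlation of -0.872 in sort 2 and -0.18 in sort 3.

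The mean level of each gene was then compared between the aLP and ILCP pools, with the level of a cell as 24 minus its Ct, or 0 where not detected. Such a mean depends both on how many cells detect a gene and on how much they hold, and it is no fold. Of 91 assays tested in limma, 1 (1.10%) was called higher in aLP and 5 (5.49%) lower, and 27 had an unadjusted p below 0.05. Irf8 stood at 4.66 and 5.08 cycles in aLP of sorts 2 and 3, and at 2.21 and 1.77 in ILCP (2.88 ± 0.31 SE higher in aLP, adjusted p = 0.0138). Among detecting cells alone it differed by 0.957 cycles (adjusted p = 0.219). The 5 lower assays were Zbtb16, the protein of which defines the gate, Tcf7, the nuclear receptor genes Rora and Rxrg, and Ets1. With the sort as a block, Irf8, Tcf7, Rxrg and Ets1 were no longer called (limma adjusted p = 0.0611 for each), and Zbtb16 and Rora were (0.0458 for both). Over all 91 assays the median difference was -0.54 cycles, with 72 below 0. Scaled to Actb and Gapdh, it was -0.45, and 2 were called higher and 6 lower. In sort 2 all 54 aLP cells lay in the second number range, against 10 of 62 ILCP cells. Group and range are therefore partly confounded in sort 2, for the level and for the spread. With cells of that range alone, limma called 0 assays higher in aLP and 7 lower.

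The other markers did not pass. Tle1 stood at 4.07 and 3.39 in aLP and 1.79 and 1.05 in ILCP (2.32 ± 0.42 SE, limma adjusted p = 0.0685, and 0.0354 with levels scaled to Actb and Gapdh). Tsc22d3 stood at 3.49 and 7.30 in aLP and 2.1 and 4.04 in ILCP, above ILCP within each sort though the aLP pools lay far apart (2.31 ± 1.55 SE, adjusted p = 0.374). The differences of Nfil3, Rag2 and Bcl11a were 1.48 ± 0.88, 0.45 ± 0.49 and 0.40 ± 0.23 (SE), and that of Rag2 was 1.00 in sort 2 and -0.11 in sort 3. All 6 markers had a mean difference above 0, with a median of 1.90 against -0.54 for all assays tested, which their choice makes likely.

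By list, 4 of 11 ILC precursor factors were called lower in aLP (the gate gene Zbtb16, Tcf7, Ets1 and Rora) and 0 higher, with a median difference of -1.72, beside 5 of 91 lower and 1 of 91 higher over all assays tested. Of 10 T lineage and Notch genes tested, 1 was called lower (Tcf7), and the median was -1.02. Of 7 ILC2 genes, 2 were called lower (Rora and Rxrg), with a median of -0.54. None of 8 tested genes of lymphoid tissue inducer cells and ILC3, 5 of ILC1 and natural killer cells, 8 cytokine receptors and 4 co-repressors was called in either direction, with medians of -0.42, -0.75, -0.44 and -0.22. In the B lineage list 1 of 4 was called higher (Irf8), and the median was -0.10. With either ILCP pool left out (sort 2, then sort 3), limma called 0 assays (19 and 23 at an unadjusted p below 0.05). Without the aLP pool of sort 2 it called 3 higher and 12 lower, and without that of sort 3, 3 higher and 6 lower.

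**Figure D5:**
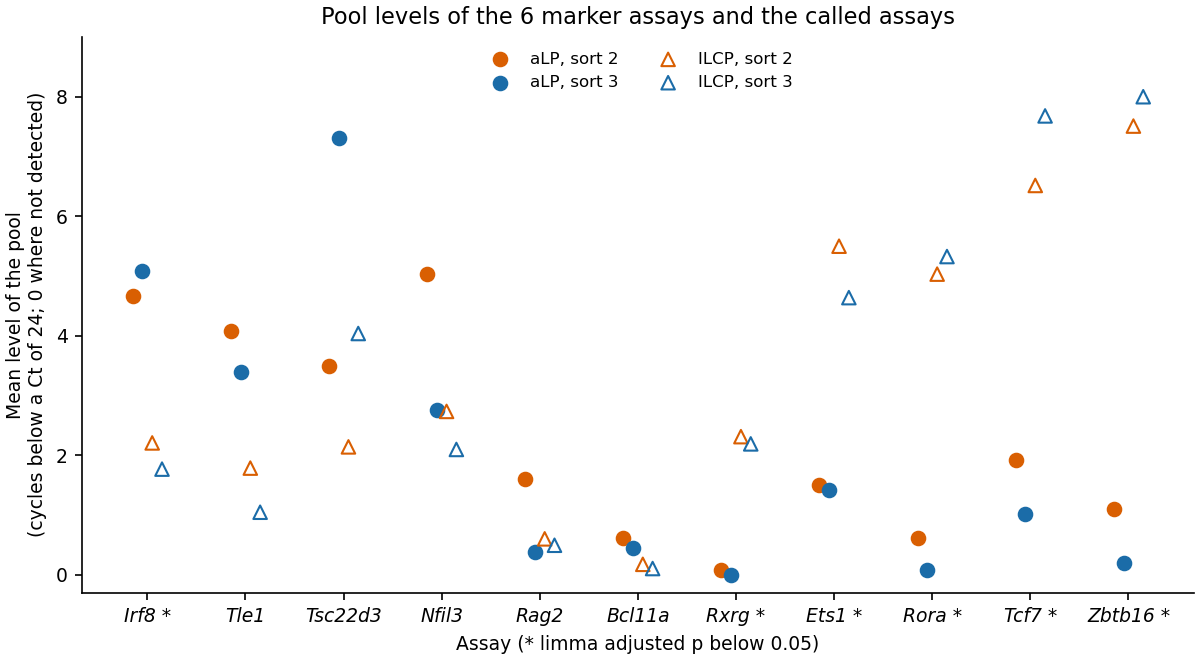
Each symbol is the mean level of 1 pool, in cycles below a Ct of 24 with 0 where a cell did not detect the assay. Circles are aLP, triangles ILCP, orange sort 2 and blue sort 3, and stars mark a limma adjusted p below 0.05. Irf8 lies at 4.66 and 5.08 in aLP and at 2.21 and 1.77 in ILCP.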

How the data were processed

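Single fetal liver cells were measured by multiplex quantitative RT-PCR on a Biomark HD system after 22 cycles of preamplification, per the labels' protocols. The authors' deposited table holds 1 Ct per assay and cell, not normalized, per the file headers (rule behind a missing Ct: not given in the sources used here). Of 4591 aLP Ct values, 256 (5.58%) lay at or above 24 and were treated as not detected, among them 68 of 90 for Id2. No label defines the number in the cell name that was taken as the sort. Whether same-numbered pools are paired is not given in the labels, and their deviations had a correlation of -0.047 over 91 assays.

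Pools of cells (group by sort) were compared with limma 3.58.1 in R 4.3.3 (lmFit, eBayes, Benjamini-Hochberg, threshold 0.05), after a test on simulated data. Level was tested for assays that 5% or more of the cells in some pool detected. The p-values measure the spread between 2 pools a group, which may be technical. Limits on a share of 0 are 3 cells over the cells of the pool. Shares, phi, components and figures were made with Python 3.11.15, pandas 2.3.3, numpy 2.4.6, scipy 1.17.1 and matplotlib 3.10.9. Start sites were matched by symbol to a RefSeq table of GRCm38.p6. Of the assay names 98 matched a mouse gene by symbol, 1 by synonym, and Pira11 matched none.

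Members, lists and named genes were chosen with earlier results of these data known. Named were markers, gate genes, list examples, assays by band of detection, the largest differences between sorts, the widest and narrowest Ct, the highest and lowest pairs and the called assays. Values of 3 assays are not reported here, though all stayed in every fit and count. Alternatives varied the detection limit, cell and assay filters, scaling, pools, number ranges and the replicate block.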

Additional observations from a re-analysis of the deposited data

Results flagged for a closer look

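Among the genes with values reported here, the aLP minus ILCP level of 2 pointed opposite ways in the sorts, by over 1 cycle in each. This difference between sorts was not tested, since each sort has 1 pool a group. Sox4 was 1.05 cycles higher in aLP in sort 2 and differed by -3.68 in sort 3, with detection in 74.1% and 34.8% of aLP cells and 58.1% and 87.8% of ILCP cells. Igfbp4 differed by 2.77 and -1.99 cycles, with 79.6% and 46.7% of aLP cells and 30.7% and 71.1% of ILCP cells. In both genes the share in sort 3 was lower than in sort 2 among aLP cells and higher among ILCP cells.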

How the results depend on the processing

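The count of assays called higher in aLP, 1 in the limma fit, was 2 with detection limits of 26, 28 or none, a 20% assay filter, shares of cells, or scaling to Actb and Gapdh, and 0 with detecting cells only or cells in the second range of 96 numbers. The count called lower, 5, was 9 with the 20% filter, 10, 14 and 15 with limits of 26, 28 or none, 11 with shares and 0 with detecting cells only. With the sort as a replicate block, 0 were called higher and 2 lower, so that Irf8 lost its call (adjusted p = 0.0611 in limma). Leaving out 1 pool at a time gave 0 to 3 higher and 0 to 12 lower, and 0 to 1 assays with a wider spread. Removing 1 pool leaves a group with 1 pool, which is assumed to vary like the other. Other spread counts stayed at 0. Among cells with at least 20 detected assays, the mean in sort 2 was 35.4 and 17 assays were at least 20 points lower in sort 3. The 11 pairs at a phi of 0.3 became 6 with a limit of 22 or with those cells, and 3 by partial phi. The cause of these changes was not tested. The Rag2 level difference ran from -0.164 without the aLP pool of sort 2 to 1.06 without that of sort 3. Phi changed sign in sort 3 for Irf8 with Ets1 (0.0278) and with Tcf7 (0.134) in the second number range. Among cells with 25 to 38 assays, chosen after seeing the data, Rbpj differed by -0.916 and Zbtb7a by -2.48 points between sorts. Leaving Tbp out, also chosen after seeing the data, gave the same counts of 1 and 5. With a limit of 24, a share counts cells with a detected transcript, and genes near that limit may be missed in cells with little cDNA.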
